A study of Mus musculus with 12 samples.

Results

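Astrocytes that had been moved into MIM, a serum-free medium with the growth factor FGF2, were compared with cultured glioblastoma cells, 3 RNA-seq libraries of each. The comparison covers every gene that reached 1 FPKM (fragments per kilobase of transcript, scaled to the mapped fragments of the library) in at least 3 of these 6 libraries with an accepted value in all of them. This left 15388 of the 53932 genes in the files, 11932 of them protein coding. The series holds 12 libraries in 4 groups of 3, and the other groups, neural stem cells (NSC) and Astrocytes kept in serum medium, appear only as side values without a test.

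All cultures were from C57BL/6 mice and all libraries from total RNA. MIM-Astrocytes carry the labels cortex and E14.5 (embryonic day 14.5). Per the protocols, astrocytes were either sorted from postnatal cortex by the surface protein GLAST or differentiated from neurospheres, and which source these libraries had is not given. They grew in 10% serum and were then moved to MIM with FGF2 at 20 ng/mL and up to 6 metabolites (methionine, threonine, glycine, cysteine, putrescine and S-adenosylmethionine), for up to 5 days. The mix and the day of these libraries are not stated. Glioblastoma carries the labels cerebella and E18.5, and neither the driver of the tumour, nor its medium, nor the number of clones is given. NSC were neurospheres of E14.5 cortex with EGF and FGF2 at 20 ng/mL each. Tissue, age, medium and tumour origin therefore differ together between the groups and cannot be told apart. The replicates are not said to be separate cultures, so the p-values measure the spread between these libraries, which may be technical.

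Astrocytes supply neurons with metabolites, clear glutamate and potassium, and ordinarily stop dividing as they mature. Glioblastoma is a malignant glioma whose cells keep features of neural progenitors, and its common lesions hit receptor tyrosine kinases, the RAS to ERK cascade, the p53 pathway and the G1 checkpoint of the cell cycle. One-carbon metabolism, which the study's title links to cell identity, carries single carbons from serine and glycine on folate to make nucleotides and, through methionine and S-adenosylmethionine, to methylate DNA and histones.

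The difference between the cultures was broad. Of the 15388 genes, 4286 (27.9%) were higher in MIM-Astrocytes and 6927 (45%) were lower (limma on log2 of FPKM plus 1, Benjamini-Hochberg adjusted p below 0.05, two-sided). In all 72.9% of genes were called. At least 2-fold on that scale, 1459 (9.48%) were higher and 2257 (14.7%) lower. The 3 libraries of one culture all lay beyond the 3 of the other for 11836 genes (76.9%). A count of called members in any gene group below is read against these shares, and differences are given throughout as MIM-Astrocytes minus Glioblastoma, a scale that understates the change of genes near 0.

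The balance between higher and lower calls depended on scale. The median of all genes tested was -0.18 log2, so a gene that keeps its rank sits slightly below 0, and list medians are to be read against it. After median-of-ratios scaling that median was 0.0044, with 5577 genes higher (36.2%) and 5516 lower (35.8%). Setting all libraries to a common total gave 5363 higher and 4619 lower, quantile normalization 5293 and 5804, and rescaling on nuclear protein-coding genes 4384 and 4986. Summed FPKM ran from 665449 to 795257 in MIM-Astrocytes and from 812104 to 979106 in Glioblastoma (exact permutation p = 0.1, two-sided, the smallest that 3 against 3 allow). The intervals in the files imply 13461873 to 14738863 fragments per library in MIM-Astrocytes and 11049829 to 13134101 in Glioblastoma, if the intervals hold counting error. The upper bound of the interval lies 8.08% to 9.89% above the value near 10 FPKM and 24% to 30.9% above it near 1 FPKM. This covers counting and assignment error only, and the lower side is not included. Libraries of a group correlated at 0.968 to 0.980 across genes and libraries of different groups at 0.831 to 0.846.

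**Figure D1:**
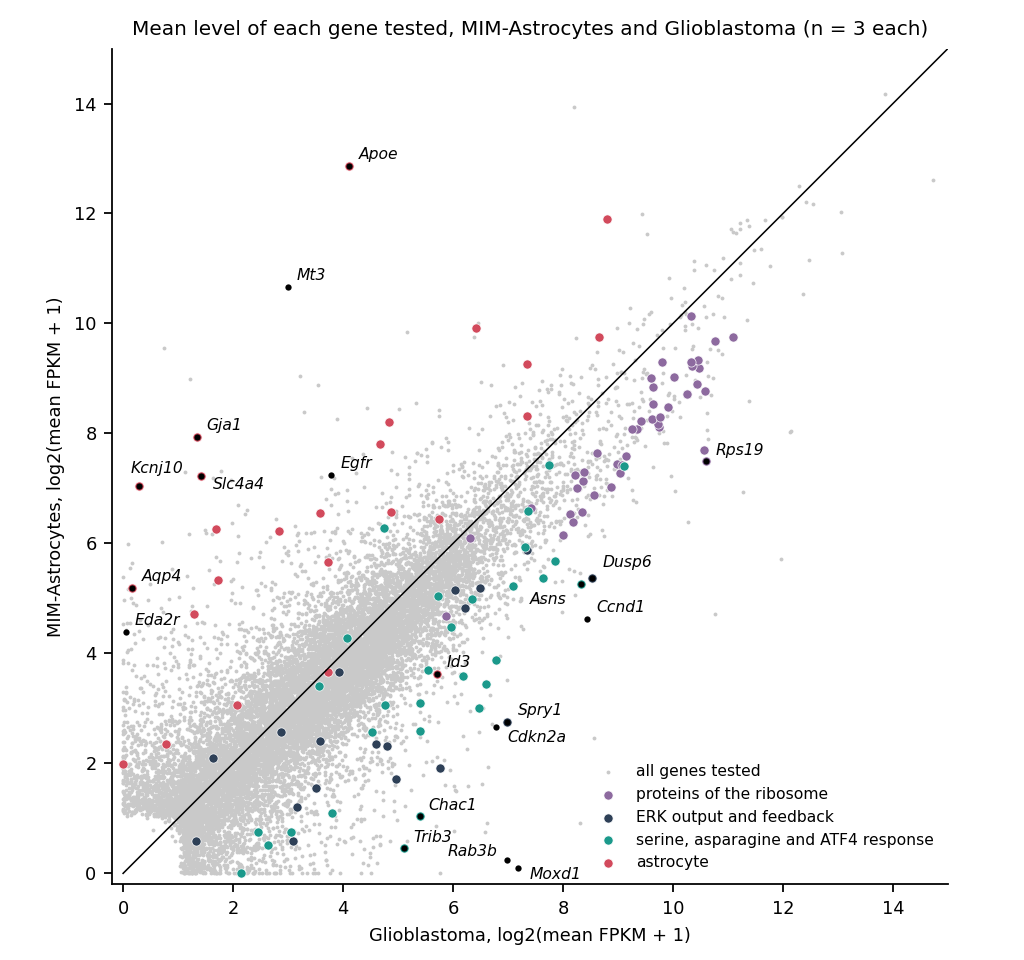
Mean level of each gene tested, as log2 of mean FPKM plus 1, in Glioblastoma (x axis) and MIM-Astrocytes (y axis), 3 libraries each. Grey points are all genes, coloured points the members of 4 lists, black points named genes, and the line marks equal level. Most astrocyte genes lie above the line, while most ERK, ATF4 and ribosomal genes lie below it.

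Genes that define astrocytes formed the strongest group on the MIM side. Of 25 listed, all tested, 23 were higher in MIM-Astrocytes, 1 was lower and 1 was not called, with a median of 3.09 beside -0.18 over all genes. All 25 reached 1 FPKM in MIM-Astrocytes and 21 did in Glioblastoma. The summed level of the list ran from 14422 to 16837 FPKM in MIM-Astrocytes and from 1482 to 1558 in Glioblastoma. Its mean was 15688 in MIM-Astrocytes, of which Apoe alone made 7459. In NSC the mean sum was 7677 and in Astrocytes 14117. The markers that define the label of the MIM culture were thus present. In bulk RNA, fewer cells of a kind and less RNA per cell cannot be told apart.

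Apoe, the main lipid carrier that astrocytes secrete, showed the largest difference of all genes. It stood at 6974, 7971 and 7431 FPKM in the 3 MIM-Astrocytes libraries and at 15.5, 17 and 16.6 in Glioblastoma. Its difference was 8.75 log2 (SE 0.08, adjusted p = 2.2e-07), a 456-fold ratio of means, with NSC at 3685 ± 345 (SD, n = 3) and Astrocytes at 5375 ± 618. The tumour culture was the outlying one of the 4 for this gene (Apoe, chr7:19696109-19699188, GRCm38). Kcnj10, the inward rectifier potassium channel of astrocytes, was at 138, 115 and 138 FPKM against 0.29, 0.201 and 0.183 (difference 6.74, SE 0.09, adjusted p = 3.16e-07). Gja1, the main gap junction protein of astrocytes, was at 258, 242 and 229.5 against 0.976, 1.44 and 2.19 (difference 6.62, SE 0.17, adjusted p = 1.4e-06). Slc4a4, a sodium bicarbonate cotransporter, differed by 5.81 (149 ± 8.67 against 1.68 ± 0.0998). No library of one culture came near the other for any of these.

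The water channel Aqp4 was at 36.4, 35.9 and 34.1 FPKM in MIM-Astrocytes and at 0.157, 0.103 and 0.115 in Glioblastoma (difference 5.02, SE 0.05, adjusted p = 2.2e-07). Its level in Astrocytes was 397 ± 27.7, far above the MIM level. Gfap, the filament protein used to stain astrocytes, separated the cultures least among these genes. It read 7.44, 7.5 and 7.11 FPKM against 2.95, 3.11 and 3.55 (difference 0.99, SE 0.07, adjusted p = 4.51e-05), beside 258 ± 16.1 in Astrocytes and 0.964 ± 0.169 in NSC. The glutamate transporter Slc1a3 was likewise close, at 705, 965 and 910.4 against 409.7, 387 and 402 (difference 1.09, SE 0.14, adjusted p = 6.1e-04). Glutamine synthetase, Glul, was at 971 ± 92.9 against 84.2 ± 7.2, a difference of 3.51. S100b and Aldh1l1 differed by 3.44 and 4.56. Gfap and Slc1a3 thus differed much less than the channel, junction and lipid genes.

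The 1 astrocyte gene that was lower in MIM-Astrocytes was Id3, an inhibitor of basic helix-loop-helix factors and a target of BMP signals. Its libraries read 10.8, 12.2 and 11.1 FPKM against 51.3, 51.9 and 51.6 (difference -2.09, SE 0.05, adjusted p = 1.38e-06). The relatives Id1 (5.33 ± 0.452 against 28 ± 0.333) and Id2 (13.4 ± 0.555 against 55.9 ± 2.48) had the same direction. Id4 went the other way, at 12.4 ± 0.519 against 0.987 ± 0.144, so the 4 Id genes did not share a direction.

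Metallothioneins, small cysteine-rich proteins that bind zinc and copper, also stood high in the MIM culture. All 3 of the genes tested were higher, with a median of 5.83. These were grouped after their values were seen. Mt3, the brain member, was at 1386, 1828 and 1672 FPKM against 5.69, 6.94 and 8.26 (difference 7.68, SE 0.15, adjusted p = 6.57e-07). Mt2 was at 530.3 ± 40.4 against 8.35 ± 0.629 and Mt1 at 924 ± 51.3 against 34.8 ± 2.08. In Astrocytes Mt1 and Mt2 were higher still (6190 ± 811 and 5563 ± 733), and in NSC they were near the MIM level (900.1 ± 92.2 and 511 ± 66.3). The 3 genes are neighbours on chromosome 8, from Mt3 at chr8:94152607-94154146 to Mt1 at chr8:94179082-94180327.

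Other protein-coding genes with large differences on this side were Pla2g7, a secreted phospholipase that inactivates platelet-activating factor (508 ± 22.5 against 1.33 ± 0.283 FPKM), Gpd1, a glycerol phosphate dehydrogenase (156 ± 16.4 against 1.18 ± 0.136), the protease inhibitor A2m (49.3 ± 0.567 against 0.119 ± 0.00528) and Fxyd1, a regulator of the sodium pump (64.3 ± 7.61 against 0.632 ± 0.179). Prss23 and Plekhb1 differed by 5.54 and 5.56 log2. Among ion channels and transporters of glia, 17 of 34 tested were higher and 11 lower (median 0.34), with the calcium-activated potassium channel Kcnn2 at 22.5 ± 1.16 against 0.0483 ± 0.019. Glutamate receptors parted the same way for Gria1, an AMPA receptor subunit (30.4 ± 0.764 against 0.371 ± 0.114), and Grm3, a metabotropic receptor of astrocytes (13.2 ± 0.374 against 0.0636 ± 0.0272). The kainate receptor subunit Grik4 went the opposite way, at 0.538 ± 0.0514 against 4.53 ± 0.0178. Of 24 glutamate and GABA receptor genes tested, 13 were higher and 11 lower.

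On the tumour side the largest difference among protein-coding genes was that of Moxd1, a monooxygenase-like protein. It was at 145, 141 and 149 FPKM in Glioblastoma and at 0.0713, 0.0676 and 0.0604 in MIM-Astrocytes (difference -7.10, SE 0.04, adjusted p = 9.9e-08). Rab3b, a small GTPase of secretory vesicles, was at 126 ± 0.586 against 0.181 ± 0.108. NSC and Astrocytes were also under 1 FPKM for both genes (Moxd1 0.752 ± 0.0361 and 0.0836 ± 0.0929, Rab3b 0.495 ± 0.24 and 0.271 ± 0.0792). Among subunits of heterotrimeric G proteins, Gng2 was at 94.5 ± 6.49 against 0.683 ± 0.0459 and Gnb4 at 64.7 ± 0.279 against 1.84 ± 0.165. The collagen receptor kinase Ddr2 was at 50.5 ± 3.16 against 0.809 ± 0.183 and Calcrl, the receptor of CGRP and adrenomedullin, at 34.7 ± 2.18 against 0.494 ± 0.134. Tnc, the matrix protein tenascin C, was at 65.2 ± 0.578 against 1.81 ± 0.127, with NSC at 28.9 ± 1.27 and Astrocytes at 41.3 ± 1.6. Clic5 (-4.43) and the muscle type cytochrome oxidase subunit Cox6a2 (-4.44) were also in the set, as was Rpl21, which has many near-identical copies and is uncertain for that reason (379.6 ± 37.2 against 4.52 ± 0.227).

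**Figure D2:**
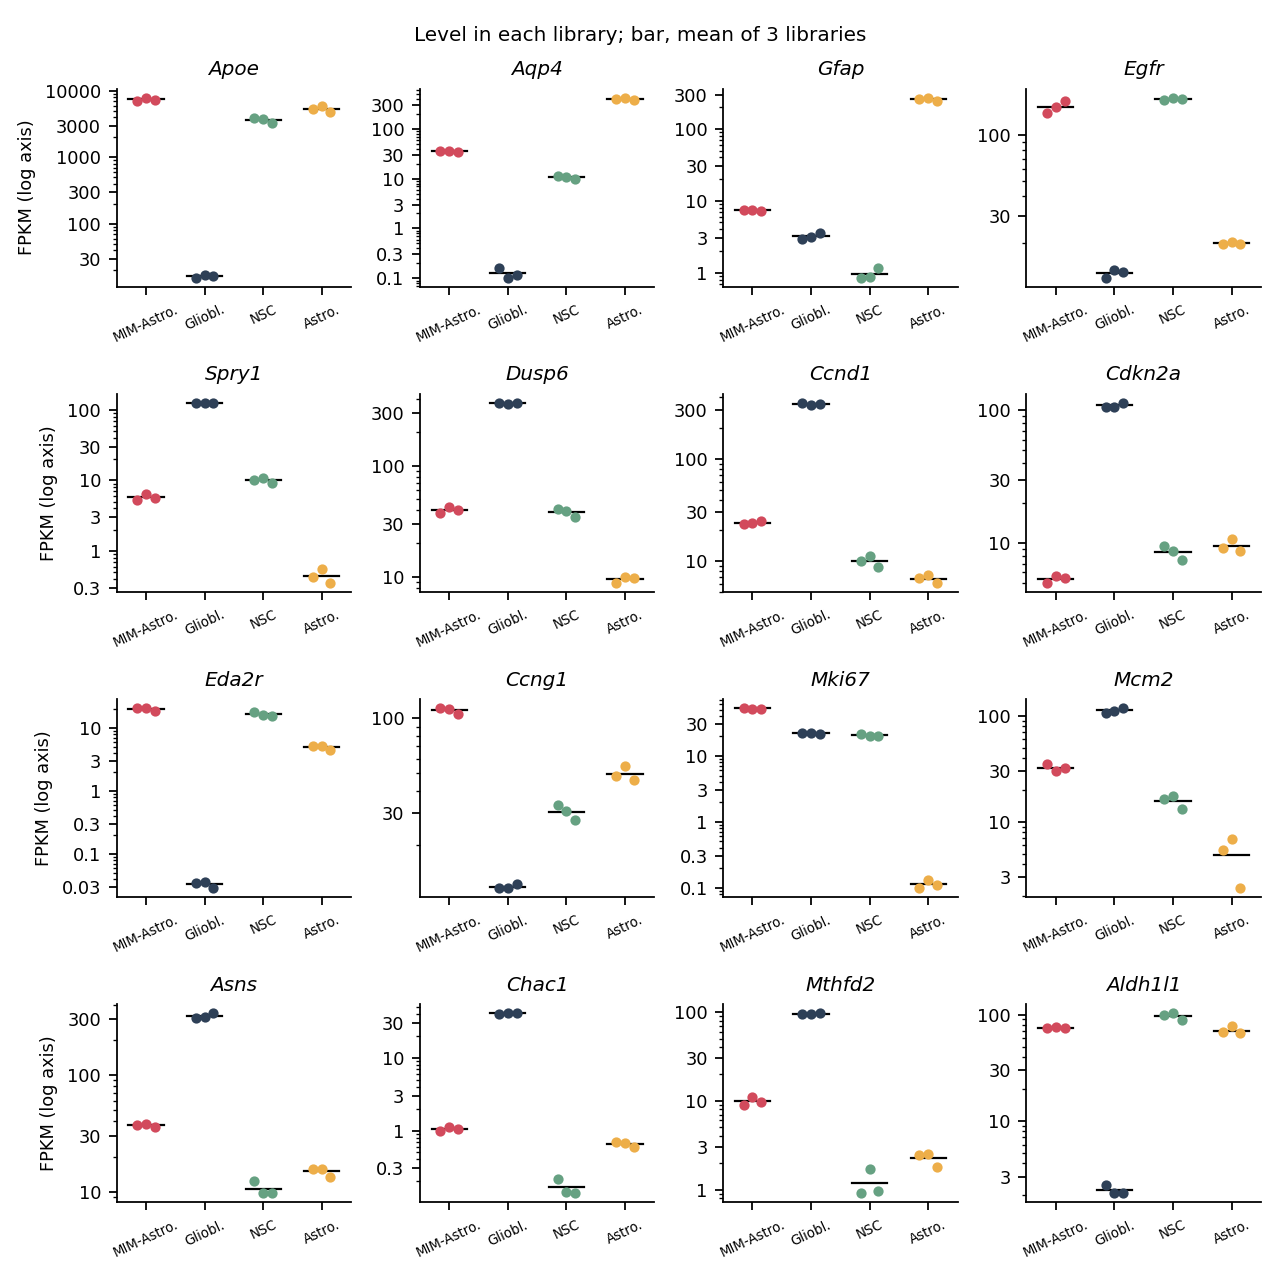
FPKM on log axes of 16 genes in each of the 12 libraries, 3 each of MIM-Astrocytes, Glioblastoma, NSC and Astrocytes; points are libraries and bars the means. In all 16 panels the MIM-Astrocytes and Glioblastoma points do not overlap, by a wide margin for Apoe and Eda2r and by a small one for Gfap.

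Genes that report the output of the RAS to ERK cascade were nearly all higher in the tumour. The 18 listed genes are transcribed on ERK activity or feed back on it, and 17 were lower in MIM-Astrocytes and 1 higher (15 and 1 after median-of-ratios scaling), with a median of -1.71. Spry1, a feedback inhibitor of receptor signalling, was at 5.21, 6.43 and 5.61 FPKM against 126, 123 and 126 (difference -4.23, SE 0.07, adjusted p = 4.2e-07). Dusp6, the phosphatase that removes phosphate from ERK itself, was at 38, 42.7 and 39.7 against 367, 363 and 371 (difference -3.16, SE 0.06, adjusted p = 5.58e-07). Both sets of libraries were tight, and the tumour stood 9.14-fold higher for Dusp6 and 21.7-fold for Spry1. Dusp4 and Dusp5, nuclear phosphatases of the same family, differed by -3.23 and -2.49, and Ier3, an early response gene, by -3.84. Among the ETS factors that FGF signals induce, Etv4 was at 27.2 ± 3.73 against 73.2 ± 5.11 and Etv5 at 35.4 ± 1.2 against 88.8 ± 3.25.

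In the other cultures, which were not tested, Dusp6 was at 38.1 ± 3.48 in NSC and 9.52 ± 0.63 in Astrocytes, and Etv5 at 31.2 ± 2.82 and 5.05 ± 0.245. The exception in direction was Il17rd, a membrane inhibitor of FGF receptor signalling, at 3.28 ± 0.0511 against 2.1 ± 0.0841. Myc, a target of ERK and other signals that drives growth, was at 3.94, 3.88 and 4.44 FPKM against 24.9, 23 and 22.1 (difference -2.26, SE 0.07, adjusted p = 2.28e-06), with NSC at 7.13 ± 1.04. Mycn was at 0.152 ± 0.0404 against 3.23 ± 0.0802. The family member Mycl was on the other side, at 6.82 ± 0.631 in MIM-Astrocytes against 3.32 ± 0.246 in the tumour (difference 0.85, SE 0.08, adjusted p = 0.000167).

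The receptors did not follow this order. Of 22 receptor tyrosine kinase and PI3K genes tested, 12 were higher in MIM-Astrocytes and 9 lower, with a median of 0.29. Egfr, whose human counterpart is amplified in many glioblastomas, was at 138, 150.0 and 166 FPKM in MIM-Astrocytes and at 12, 13.5 and 12.9 in the tumour (difference 3.46, SE 0.08, adjusted p = 1.07e-06). NSC held 170.3 ± 3.19 and Astrocytes 19.9 ± 0.421, so the tumour had the lowest mean of the 4 cultures. The FGF receptors Fgfr3 (93.4 ± 7.8 against 11 ± 0.402) and Fgfr2 (50.2 ± 0.189 against 6.38 ± 1.09) and the BDNF receptor Ntrk2 (305 ± 17.3 against 13.9 ± 0.173) were also higher in MIM-Astrocytes. Pdgfra, the PDGF receptor of oligodendrocyte progenitors, was at 2.48, 2.59 and 2.48 against 10.5, 10.0 and 10.3 (difference -1.68, SE 0.05, adjusted p = 1.79e-06). Kit and Insr had differences of -1.50 and -1.19. Met stayed below the filter, at 0.249 ± 0.0873 against 0.607 ± 0.0864. Nf1, which switches RAS off, was at 30.7 ± 2.33 against 24 ± 1.2 (0.34).

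Among ligands of growth factor receptors, 7 of 14 tested were higher and 5 lower. The heparin-binding factor Mdk was at 21.8 ± 2.23 against 0.377 ± 0.133, and Kitl, the ligand of Kit, at 49.3 ± 1.41 against 7.29 ± 0.626, opposite to its receptor. Areg, a ligand of the EGF receptor, was at 0.0455 ± 0.0271 against 3.9 ± 0.518, again opposite to Egfr, and Bdnf at 2.48 ± 0.0434 against 14.2 ± 0.205, opposite to Ntrk2. Receptor and ligand were thus on different sides for each of these 3 pairs. This did not hold for every ligand: Pdgfc (-0.33) lay on the side of Pdgfra, and Pdgfd (1.35) on the other. Receptor and ligand pairs were not tested as a set.

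The amino acid and stress response governed by ATF4 had the lowest median of the 45 lists. ATF4 is a transcription factor whose translation increases when amino acids are short or proteins misfold, and its targets make serine and asparagine and import amino acids. Of 30 genes tested, 28 were lower in MIM-Astrocytes and 2 higher, with a median of -2.04 (26 and 2 after median-of-ratios scaling). Several of these genes carry the letters TGATGNAA, the core of the element that ATF4 binds with C/EBP partners, within 250 bases before their start. They are shown here for 3 genes with large differences, 250 bases each, 5′ to 3′ along the gene, from RefSeq on GRCm38.p6, with the matching letters or their reverse complement in capitals. The Chac1 sequence is chr2:119350992-119351241 on the plus strand, that of Nupr1 chr7:126625471-126625720 on the minus strand and that of Asns chr6:7693210-7693459 on the minus strand.
Chac1: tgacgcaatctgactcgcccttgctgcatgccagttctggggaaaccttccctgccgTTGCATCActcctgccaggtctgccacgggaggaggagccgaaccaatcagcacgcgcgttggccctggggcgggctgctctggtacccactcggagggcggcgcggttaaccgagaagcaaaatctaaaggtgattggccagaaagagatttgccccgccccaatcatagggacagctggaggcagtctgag
Nupr1: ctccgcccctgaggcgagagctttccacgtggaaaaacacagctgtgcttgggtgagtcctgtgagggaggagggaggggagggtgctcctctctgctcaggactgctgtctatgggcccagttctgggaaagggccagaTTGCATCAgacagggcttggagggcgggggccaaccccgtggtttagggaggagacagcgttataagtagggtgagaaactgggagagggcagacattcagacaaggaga
Asns: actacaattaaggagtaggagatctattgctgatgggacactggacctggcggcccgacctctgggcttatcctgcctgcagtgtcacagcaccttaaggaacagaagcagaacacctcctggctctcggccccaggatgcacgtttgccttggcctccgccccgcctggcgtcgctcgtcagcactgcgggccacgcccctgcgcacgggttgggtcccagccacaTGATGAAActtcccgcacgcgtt

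On either strand of the 250 bases, the motif was found in 1134 of 32851 RefSeq promoters (3.45%, chromosome 18 left out) and in 3.91% of 27025 genes. It was found in 8 of the 28 listed genes that had a promoter in the table, namely Asns, Atf3, Chac1, Fgf21, Nupr1, Pycr1, Slc7a11 and Vldlr. A match is a run of letters and not a measured site.

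Chac1, which degrades glutathione, was at 0.971, 1.13 and 1.05 FPKM in MIM-Astrocytes and 40.3, 41.3 and 41.5 in Glioblastoma (difference -4.36, SE 0.05, adjusted p = 2.2e-07). Asns, asparagine synthetase, was at 37.6, 37.9 and 36.1 against 309.5, 313 and 338 (difference -3.07, SE 0.06, adjusted p = 5.2e-07). Nupr1, a stress-induced chromatin protein, was at 6.54, 7.82 and 6.85 against 86.1, 88.5 and 88.8 (difference -3.46, SE 0.07, adjusted p = 6.22e-07). The tumour libraries lay far above the MIM libraries for all 3, as for Trib3, a pseudokinase induced with them (0.371 ± 0.055 against 33.6 ± 1.64). The factors themselves followed: Atf4 was at 50.5 ± 3.52 against 229 ± 7.26 and Ddit3, or CHOP, at 13.7 ± 0.84 against 109 ± 3.80. Of the 8 genes with the motif, 7 had differences of -1.72 (Pycr1) or lower. The remaining one, the cystine transporter Slc7a11, was at 9.62 ± 0.33 against 10.8 ± 0.227 (difference -0.16, adjusted p = 0.0248), which median-of-ratios scaling turns to 0.05. In the whole list 24 of 30 genes were lower by at least 2-fold, beside 14.7% of all genes. Whether genes with the motif differed more than the other listed genes was not tested. NSC were also low for Chac1 (0.164 ± 0.0447) and Asns (10.7 ± 1.56), as were Astrocytes (0.661 ± 0.0527 and 15 ± 1.29). The 2 genes on the other side were Sesn2 (0.22) and the glycine transporter Slc6a9 (1.53), both on chromosome 4.

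In one-carbon metabolism the counts were even, with 14 of 33 genes higher, 14 lower and a median of -0.04, but the compartments differed. Among the enzymes and carrier of the mitochondrial folate branch, 5 of 6 were lower in MIM-Astrocytes and none higher (median -2.09), while of 7 cytosolic folate enzymes 5 were higher and 2 lower (median 0.72). This split was made after the values were seen, and Mthfd2 and Shmt2 are also on the ATF4 list. Mthfd2, a mitochondrial dehydrogenase found in embryos and tumours, was at 8.94, 11 and 9.58 FPKM against 94.5, 94.7 and 97.2 (difference -3.16, SE 0.08, adjusted p = 1.11e-06). Shmt2, which takes the carbon from serine in mitochondria, was at 36.5, 44.4 and 40.9 against 202, 195 and 198 (difference -2.27, SE 0.08, adjusted p = 3.57e-06). Both were also low in NSC (1.19 ± 0.452 and 16.3 ± 1.2) and Astrocytes (2.25 ± 0.391 and 12.4 ± 1.04). Aldh1l2 (15.3 ± 0.683 against 90.9 ± 0.415) and Mthfd1l (4.87 ± 0.252 against 21 ± 0.471) completed the branch, with Mthfd2l (-1.34). The mitochondrial folate carrier Slc25a32 overlapped between cultures, at 3.5 ± 0.369 against 3.92 ± 0.876.

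Aldh1l1, the cytosolic counterpart of Aldh1l2 and an astrocyte marker, was at 75.2, 76.3 and 75 FPKM against 2.51, 2.09 and 2.11 (difference 4.56, SE 0.06, adjusted p = 3.16e-07). Mthfd1, a multifunctional cytosolic enzyme, was at 43.7 ± 1.59 against 18.7 ± 1.44, and Tyms, thymidylate synthase, at 25.5 ± 1.59 against 15.1 ± 1.36. Shmt1 was an exception at 7.97 ± 0.944 against 25.2 ± 1.49. The paired enzymes Aldh1l1 and Aldh1l2 thus lay on opposite sides, and Shmt1 and Shmt2 on the same side. Serine synthesis was lower in MIM-Astrocytes for all 3 enzymes: the differences were -0.78 for Phgdh, -0.32 for Psat1 and -1.38 for Psph. After median-of-ratios scaling Psat1 differed by -0.10 and was not called (adjusted p = 0.124).

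On the methionine side the differences varied in size. Mat2a, which makes S-adenosylmethionine, was at 79, 79.7 and 75.6 FPKM against 116, 106 and 109 (difference -0.49, SE 0.06, adjusted p = 4.09e-04). Mtr, methionine synthase, was not called, at 6.86 ± 0.569 against 6.09 ± 0.142 (difference 0.15, adjusted p = 0.0918), but was after median-of-ratios scaling (0.34, adjusted p = 0.00933). Cbs and Cth, which move the sulphur of homocysteine to cysteine, were at 43.4 ± 4.05 against 117 ± 4.84 and at 4.72 ± 1.23 against 20.6 ± 0.865. Mtap, which salvages methionine and is often lost with the neighbouring Cdkn2a in human glioma, was at 5.53 ± 0.211 against 11.2 ± 0.215, so both were higher in this tumour culture. Ahcyl1 was higher in MIM-Astrocytes, at 153 ± 15 against 35.7 ± 2.25. For polyamines, 11 of 17 genes were lower and 3 higher (median -0.33; 6 lower and 5 higher after median-of-ratios scaling). Odc1, the first enzyme of their synthesis, barely differed, at 64.1 ± 2.34 against 72.3 ± 3.76 (difference -0.17, adjusted p = 0.0405), and median-of-ratios scaling turned this to 0.05.

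Genes for DNA and histone methylation differed by little. Of 39 tested, 20 were lower and 8 higher with 11 not called, their median of -0.19 was that of all genes, and 1 was lower by at least 2-fold. That gene was Dnmt1, the maintenance DNA methyltransferase, at 21.7, 20.2 and 19.9 FPKM against 52.6, 50.1 and 50.9 (difference -1.28, SE 0.05, adjusted p = 5.95e-06). Its partner Uhrf1 was at 23.4 ± 0.582 against 32.2 ± 0.919 and the de novo enzyme Dnmt3a at 13.2 ± 1.31 against 22.6 ± 1.40. Ezh2, which is the catalytic subunit of the Polycomb repressive complex, had overlapping libraries at 33.7 ± 3.92 against 36.3 ± 2.74 (difference -0.11, adjusted p = 0.362).

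At the G1 checkpoint the cyclins and kinases, the inhibitors and the p53 targets differed, and the whole list gave 15 higher, 12 lower and 5 not called of 32 (median 0.08). Ccnd1, cyclin D1, which commits cells to S phase, was at 23, 23.3 and 24.6 FPKM in MIM-Astrocytes and 355, 338 and 347 in the tumour (difference -3.82, SE 0.05, adjusted p = 3.16e-07). Ccnd2 was at 75.2 ± 5.0 against 201 ± 12.4, Cdk4 at 269.5 ± 29 against 440.4 ± 15.1 and Cdk6 at 0.457 ± 0.111 against 3.61 ± 0.201. All 4 drivers were therefore higher in the tumour, and so were inhibitors of their kinases. Cdkn2a, the locus of INK4A and ARF, was at 5.01, 5.61 and 5.47 against 106, 107 and 114 (difference -4.11, SE 0.06, adjusted p = 3.23e-07), and Cdkn2b beside it at 5.9 ± 0.337 against 21.3 ± 1.11. Its products share exons and the gene value does not separate them. Cdkn2c, another member of that family on chromosome 4, went the other way at 45.3 ± 1.82 against 14.2 ± 1.15. Rb1, the retinoblastoma protein, was at 39.2 ± 4.96 against 22.1 ± 2.83.

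Trp53, which encodes p53, was higher in the tumour, at 16.4, 17 and 16.9 FPKM beside 5.33, 6.45 and 6.76 in MIM-Astrocytes (difference -1.31, SE 0.09, adjusted p = 3.51e-05). Genes that p53 activates lay mostly on the opposite side. Of 14 in the list, grouped after their values were seen, 11 were higher in MIM-Astrocytes, 2 lower and 1 not called, with a median of 1.16. Ccng1, cyclin G1, was at 114, 113 and 105 against 11.7, 11.6 and 12.2 (difference 3.12, SE 0.05, adjusted p = 3.76e-07). Eda2r, a receptor of the tumour necrosis factor family, was at 20.8, 20.6 and 18.7 against 0.0349, 0.0364 and 0.0288 (difference 4.34, SE 0.06, adjusted p = 3.16e-07). Trp53inp1 was at 48.5 ± 3.66 against 8.42 ± 0.358 and Phlda3 at 22 ± 3.15 against 5.54 ± 0.455. Cdkn1a, the inhibitor p21, differed less, at 20.0, 20.8 and 21.5 against 11.1, 10.5 and 10.7 (difference 0.89, SE 0.05, adjusted p = 1.72e-05). Mdm2, a p53 target that degrades p53, was not called, at 25 ± 0.429 against 27.6 ± 2.26 (difference -0.14, adjusted p = 0.118). The targets on the tumour side were Gadd45a (-0.78) and Bbc3 (-0.62). Whether either culture carries a changed Trp53 is not given in the labels.

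**Figure D3:**
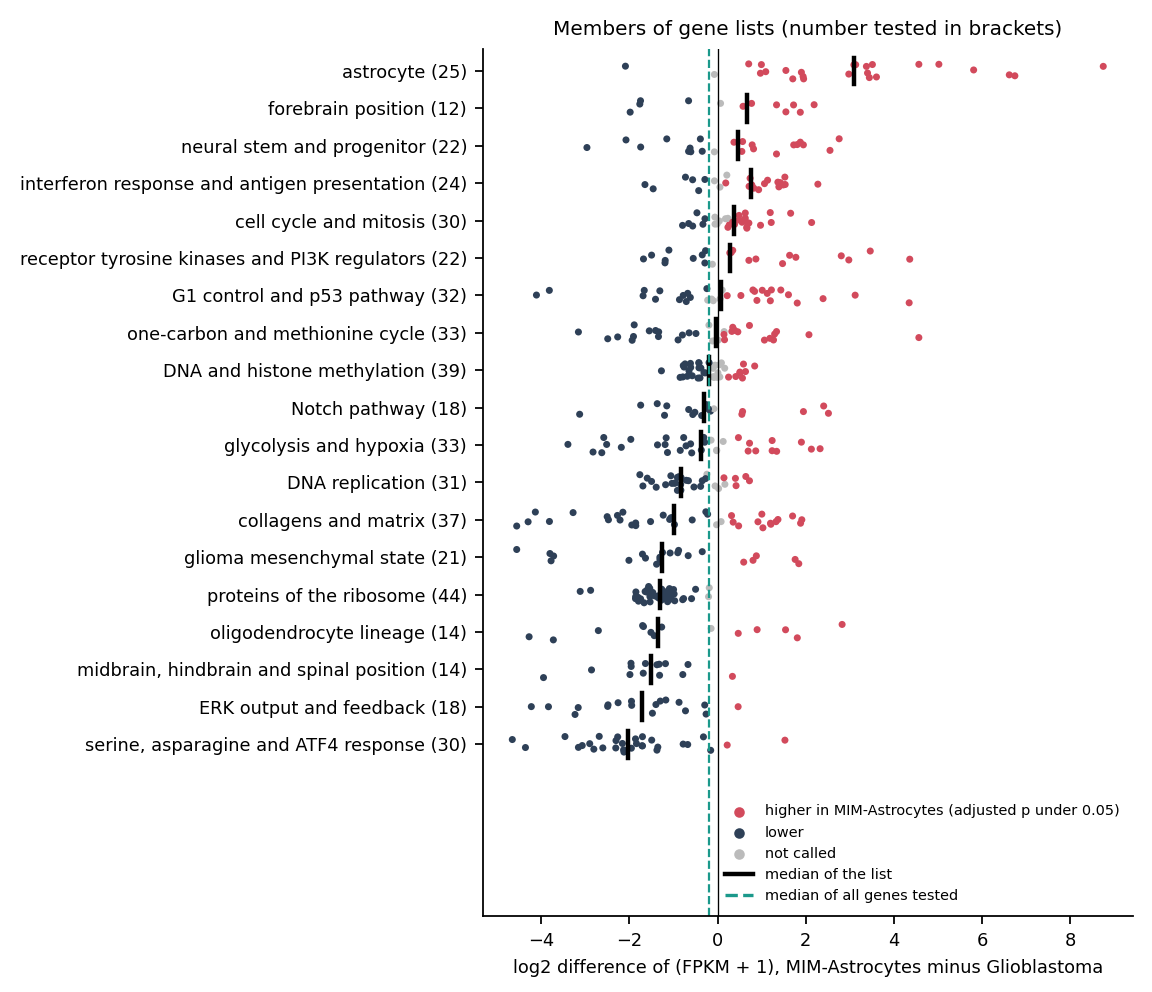
Log2 difference of FPKM plus 1, MIM-Astrocytes minus Glioblastoma, for each tested member of 19 gene lists (numbers in brackets). Red and dark points passed the adjusted p of 0.05, black bars are list medians and the dashed line is the median of all genes, -0.18. Astrocyte genes centre at 3.09 and ATF4 genes at -2.04, while cell cycle genes centre at 0.36 and methylation genes at -0.19.

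Both cultures expressed the machinery of division, and genes of mitosis and of DNA replication lay on different sides. Of 30 cell cycle and mitosis genes, 18 were higher in MIM-Astrocytes and 6 lower (median 0.36). Mki67, a marker of dividing cells, was at 52.9, 51.3 and 51.5 FPKM against 22.2, 22.2 and 21 in the tumour (difference 1.22, SE 0.05, adjusted p = 4.27e-06), with 20.3 ± 1.16 in NSC and 0.112 ± 0.0151 in Astrocytes. Cdc20, which starts anaphase, was at 73.8 ± 9.32 against 16 ± 0.461, and the mitotic kinesin Kif20a at 30.1 ± 1.95 against 8.85 ± 0.216. Cdc20 lies on chromosome 4 and Kif20a on 18, whose genes as a whole were higher. Top2a, DNA topoisomerase II alpha, went the other way by a little, at 155, 152 and 143 against 186, 176 and 187 (difference -0.29, SE 0.06, adjusted p = 0.00569), which after median-of-ratios scaling was -0.07 and no longer called (adjusted p = 0.389). Mad2l1 and Ndc80, of the kinetochore and its checkpoint, differed by -0.57 and -0.66.

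Of 31 DNA replication genes, 22 were lower in MIM-Astrocytes and 5 higher (median -0.83). The helicase of Mcm2 to Mcm7, which unwinds DNA at the fork, showed this in 5 of its 6 subunits. Mcm2 was at 34.8, 30.4 and 31.9 FPKM against 107, 112 and 118 (difference -1.76, SE 0.07, adjusted p = 5.56e-06), and Mcm3 at 15.1, 14.9 and 14.3 against 52.3, 48.9 and 48.7 (difference -1.70, SE 0.05, adjusted p = 2.01e-06). Mcm5, Mcm6 and Mcm7 differed by -1.04, -1.39 and -1.06. Mcm4 alone was higher in MIM-Astrocytes, at 18.8 ± 0.147 against 14 ± 0.757 (difference 0.40, adjusted p = 6.78e-04), and it lies on chromosome 16, whose genes as a whole were higher too. The loading factor Cdc6 was at 2.55 ± 0.152 against 9.03 ± 0.302, and Pcna, the sliding clamp, was on the MIM side at 125 ± 14.8 against 93.2 ± 4.67. In Astrocytes Mcm2 was at 4.87 ± 2.28 and Top2a at 0.944 ± 0.0505.

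Proteins of the ribosome were lower in MIM-Astrocytes for 42 of 44 genes tested, with none higher and 2 not called (median -1.31, and -1.09 after median-of-ratios scaling, with 41 lower). Rps19 was at 194, 173 and 169 FPKM against 1603, 1477 and 1592 (difference -3.12, SE 0.09, adjusted p = 2.03e-06). Rplp0 was at 419 ± 57.1 against 1215 ± 13.4 and Rpl3 at 173 ± 16.5 against 505 ± 23.6. Astrocytes were lower still, with Rps19 at 64.1 ± 8.57 and Rplp0 at 201 ± 24.1. Ribosomal genes have many processed copies, so how their reads were shared is uncertain. Histone genes that are transcribed in S phase, 26 tested, gave 14 lower, 1 higher and 11 not called, and also have near-identical copies.

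Genes of body position differed between the cultures, but forebrain genes did not all lie on 1 side. Hox genes, which mark hindbrain and spinal levels along the body axis, stayed under 1 FPKM outside the tumour. None of 39 reached a mean of 1 FPKM in MIM-Astrocytes, NSC or Astrocytes, where the highest means were 0.321, 0.134 and 0.231. In Glioblastoma 13 did, all in the A and D clusters, and all 13 were called lower in MIM-Astrocytes. Hoxd8 was at 15.2, 13.1 and 15.1 FPKM in the tumour and listed at 0 in every MIM-Astrocytes library. Hoxa7 was at 12.7, 12.2 and 13.7 against 0.0271, 0.077 and 0.0229, and Hoxa5 at 7.66, 8.02 and 7.62 against 0.215, 0.223 and 0.182 (difference -2.86, SE 0.05, adjusted p = 4.55e-07). The B cluster stayed near 0 in the tumour as well, and no C gene reached 1 FPKM.

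**Figure D4:**
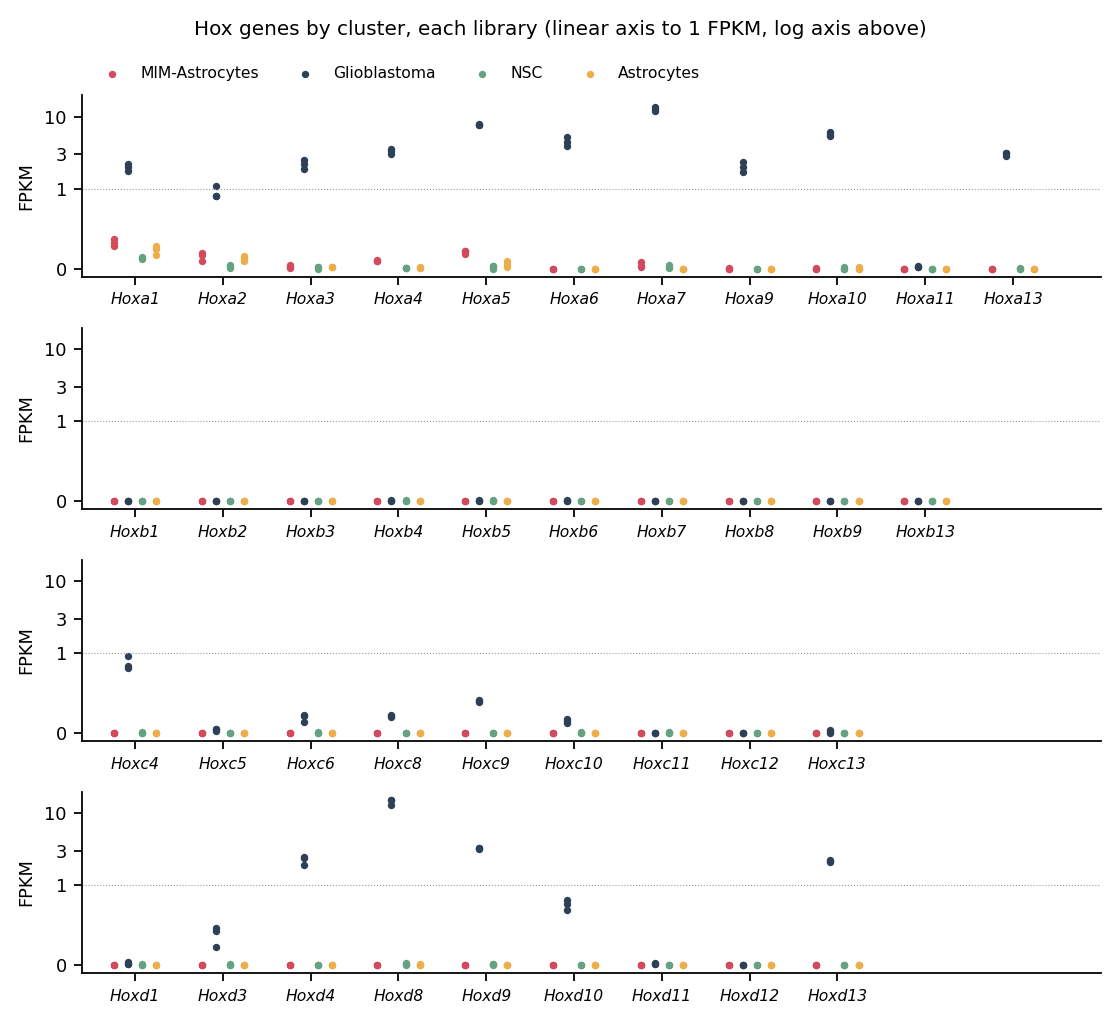
FPKM of 39 Hox genes in each of the 12 libraries, by cluster (linear axis to 1 FPKM, log axis above; dotted line at 1 FPKM). Only Glioblastoma points rise above the line, in clusters A and D, up to a mean of 14.5 for Hoxd8.

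Of 14 midbrain, hindbrain and spinal genes tested, Hox members included, 13 were lower in MIM-Astrocytes and 1 higher (median -1.51). En2, a factor of the midbrain and hindbrain boundary, was at 0.471, 0.498 and 0.532 against 2.87, 2.57 and 2.84 FPKM (difference -1.33, SE 0.06, adjusted p = 8.08e-06). On the forebrain side 7 of 12 were higher and 4 lower (median 0.67). The forebrain factors Lhx2 and Sp8 were at 23.6 ± 3.61 against 5.67 ± 0.594 and 3.71 ± 0.093 against 0.0338 ± 0.0182. Dlx6, a gene of ventral forebrain interneurons, broke this order at 0.00257 ± 0.00445 against 2.41 ± 0.0756. So did Dlx1, Nr2f2 and Emx2, with differences of -1.75, -1.98 and -0.66. The tumour's label, cerebella, was set against granule cell genes: 5 of 7 tested were higher in MIM-Astrocytes and none lower. Atoh1, which specifies granule cells, was at a mean of 0.037 in the tumour, Barhl1 at 0.0831 and Zic1 at 0.0457, whereas Zic2 was at 3.54 ± 0.358. Of all 18 listed granule lineage genes, 4 had a mean of 1 FPKM or more in the tumour, where the summed level ran from 20.5 to 21.9, and 7 in MIM-Astrocytes, where it ran from 36.1 to 44.8.

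Neighbouring genes can be near 0 together. Among 11917 protein-coding genes at 1 FPKM or more in every library of at least 1 culture, 67 were at or below 0.1 FPKM in all 3 Glioblastoma libraries. Of these, 8 formed 4 runs of adjacent genes. Adjacent means next in order among the 11917, so other genes can lie inside a run. Hoxd10, Hoxd11 and Hoxd12 (tumour means 0.753, 0.0124 and 0) and Hoxa11 (0.0247) lie inside the Hox runs given below. In MIM-Astrocytes 88 were, and 15 formed 5 runs. At a limit of 0.3 FPKM there were 10 runs on each side. The tumour's runs were Gabra4 and Gabrb1, GABA receptor subunits (chr5:71569749-72149037), the transporters Slco1c1 and Slco1a4, Zic1 and Zic4 (chr9:91358058-91389348), and Heph with the p53 target Eda2r on the X. Zic1 was at 10.7, 18.1 and 17.2 FPKM in MIM-Astrocytes against 0.097, 0.0400 and 0. Gabra4 overlaps Gabrb1 and Zic1 overlaps Zic4 on opposite strands, and whether the counts used strand is not given. In MIM-Astrocytes the runs were the Hox genes Hoxd13, Hoxd9, Hoxd8 and Hoxd4, the Hox genes Hoxa6, Hoxa7, Hoxa9, Hoxa10 and Hoxa13, the homeobox genes Tlx1 and Lbx1 (3.66 ± 0.0136 and 4.18 ± 0.276 in the tumour), the collagen VI genes Col6a2 and Col6a1, and Stk26 with Frmd7. For Hoxd9, Tlx1, Lbx1, Col6a1 and Frmd7, NSC and Astrocytes were near 0 too, the highest mean being 0.107 for Col6a1 in Astrocytes.

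Mesenchymal genes were mostly higher in the tumour, while matrix genes differed in both directions. Of 21 genes of the mesenchymal state of glioma, a programme of wound-like and migratory genes, 16 were lower in MIM-Astrocytes and 5 higher (median -1.25). Timp1, an inhibitor of matrix proteases, was at 1.22, 1.43 and 0.902 FPKM against 28.1, 29 and 30.9 (difference -3.80, SE 0.10, adjusted p = 1.4e-06), and Emp3 at 0.497 ± 0.111 against 18.7 ± 1.72. Yet Cd44, the hyaluronan receptor often used to name that state, and Anxa2 were on the MIM side, at 11.2 ± 0.352 against 5.66 ± 0.277 and 25.3 ± 2.13 against 6.76 ± 0.238. Among 37 collagens and matrix genes 22 were lower (59.5%) and 13 higher (35.1%), beside 45% and 27.9% of all genes (median -0.98). Spp1, osteopontin, was at 0.456 ± 0.0251 against 24.6 ± 1.45, Lama4 at 0.118 ± 0.0719 against 21 ± 1.4 and the fibrillin Fbn2 at 0.316 ± 0.0368 against 11.8 ± 0.350. The brain lectican Bcan (294 ± 26.2 against 126 ± 2.75) and Col4a6 (3.46 ± 0.0907 against 0.186 ± 0.023) were higher in MIM-Astrocytes. Mmp2, a gelatinase, was at 0.206 ± 0.0209 against 6.9 ± 0.405. Integrins parted, with Itga4 at 0.244 ± 0.0484 against 8.59 ± 0.465 and Itgb5 at 39.8 ± 0.746 against 2.98 ± 0.305.

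Genes of interferon response and antigen presentation leaned to the MIM culture, with 15 of 24 tested higher and 6 lower (median 0.76). The class I molecule H2-D1 was at 32.2, 35.7 and 32.5 FPKM against 10.8, 11 and 10.9 (difference 1.53, SE 0.05, adjusted p = 3.58e-06), and Ifit3 at 4.67 ± 0.30 against 0.172 ± 0.0508. Both were higher in Astrocytes (86 ± 7.62 and 28.7 ± 2.79). Ifi27 (11.5 ± 2.89 against 37.5 ± 0.816) and Bst2 (0.605 ± 0.163 against 3.41 ± 0.257) lay on the tumour side. Of 18 reactive astrocyte genes 9 were higher and 9 lower. Complement C3 was at 8.79 ± 0.331 against 0.0376 ± 0.00979 and Lcn2 at 4.87 ± 0.587 against 0.114 ± 0.023, both far below Astrocytes (379 ± 17.5 and 45.2 ± 4.51). Of 12 cytokines and chemokines 8 were lower, among them Ccl2 (0.0392 ± 0.0467 against 3.82 ± 0.677) and Il33 (1.72 ± 0.164 against 13.2 ± 0.726). The 3 higher ones were Cntf, Il18 and Csf1, with differences of 0.995, 0.61 and 0.34.

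Of 33 genes of glycolysis and hypoxia, 19 were lower in MIM-Astrocytes and 10 higher (median -0.37). Hk2, a hexokinase often high in tumours, was at 0.998, 1.21 and 0.711 FPKM against 18.1, 21.2 and 19.8 (difference -3.40, SE 0.11, adjusted p = 2.82e-06), and Vegfa, the hypoxia-induced vascular factor, at 30.6 ± 2.07 against 179.6 ± 0.618. Aldoc, the aldolase of astrocytes, was at 610.3 ± 68.4 against 162 ± 14.2, and Ldhb, a lactate dehydrogenase subunit, at 606 ± 50.5 against 119.8 ± 2.37. The glucose transporter Slc2a1, on chromosome 4, was at 19 ± 1.77 against 3.59 ± 0.306.

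In the Notch pathway 12 of 18 genes were lower and 5 higher (median -0.31, and -0.11 after median-of-ratios scaling, with 9 lower and 6 higher). The ligand Jag1 was at 4.2, 4.58 and 4.07 FPKM against 46.4, 44.3 and 44.9 (difference -3.13, SE 0.05, adjusted p = 4.14e-07), and the target genes Hes1 (15.5 ± 2.69 against 53.9 ± 0.41) and Hes5 (40.7 ± 4.67 against 91.4 ± 4.18) shared its direction. The receptor Notch2 (22.9 ± 1.73 against 3.5 ± 0.096) and the modifying enzyme Lfng (107 ± 14 against 17.7 ± 0.603) were on the other side. In the Wnt pathway 12 of 25 were higher and 9 lower, with the receptor Fzd1 at 8.43 ± 0.649 against 101 ± 1.09 and the ligand Wnt4 at 5.31 ± 0.331 against 0.0581 ± 0.0222. In the hedgehog pathway 7 of 10 were higher and 2 lower: the receptor Ptch1 was at 23 ± 1.09 against 12.7 ± 1.39 and the factor Gli3 at 2.79 ± 0.153 against 0.444 ± 0.0856, while the inhibitor Hhip was at 0.313 ± 0.0595 against 5.45 ± 0.343. Of 20 BMP and TGF-beta genes 8 were higher and 11 lower, with the ligand Bmp7 at 1.46 ± 0.0218 against 12 ± 0.422.

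Progenitor genes were expressed in both cultures. Of 22 neural stem and progenitor genes 12 were higher in MIM-Astrocytes and 9 lower (median 0.46). Sox2, a factor of stem cell identity, was at 90.4, 92.1 and 84.7 FPKM against 130.5, 135 and 143 (difference -0.61, SE 0.06, adjusted p = 2.45e-04), and the filament protein Nes at 63.1, 60.4 and 58.3 against 46.8, 45.5 and 47.5 (difference 0.37, SE 0.05, adjusted p = 8.41e-04). These are small beside the differences of Fabp7, a radial glial lipid-binding protein (4058 ± 193 against 694 ± 60.3), Pax6 (16.7 ± 1.25 against 3.59 ± 0.248) and Hmga2, a chromatin protein of fetal stem cells (0.0395 ± 0.00131 against 7.12 ± 0.166). For oligodendrocyte lineage genes 8 of 14 were lower and 5 higher (median -1.35). Olig2, common to gliomas and progenitors, was not called, at 88.4, 99.7 and 96.7 against 102, 106 and 108 (difference -0.15, SE 0.06, adjusted p = 0.0814), while its neighbour Olig1 was at 366 ± 30.6 against 196 ± 3.92. Nkx2-2 was at 0.498 ± 0.0716 against 28 ± 0.93 and Pcdh15 at 1.84 ± 0.303 against 36.5 ± 1.33, both progenitor genes, whereas the myelin gene Cnp (76.4 ± 3.1 against 21.1 ± 0.718) was higher in MIM-Astrocytes.

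Neuronal genes were higher in the tumour for 8 of 9 tested and in no case lower (8 higher and 1 lower after median-of-ratios scaling). The mean summed level of 28 listed genes was 286 FPKM in Glioblastoma and 191 in MIM-Astrocytes. It was 332 in NSC and 123 in Astrocytes. Syt1, the calcium sensor of synaptic vesicles, was at 0.137, 0.128 and 0.153 FPKM against 19.6, 19.4 and 19.7 (difference -4.17, SE 0.05, adjusted p = 2.2e-07), and the growth cone protein Gap43 at 2.46 ± 0.0977 against 42.8 ± 1.89. Other defining neuronal genes, Stmn2 and Slc17a6 among them, were near 0 in both cultures (Stmn2 0.00391 and 0.00372, Slc17a6 at 0). Markers of other cell types were sparse. Of 20 microglial genes 14 were under 0.1 FPKM in all 6 libraries and 5 were listed at 0, C1qa, C1qb, C1qc, Trem2 and Ctss, and the sum ran from 24.6 to 26 in MIM-Astrocytes and 24.2 to 27.7 in Glioblastoma. Of 20 endothelial and mural genes 1 was tested, Notch3 (11.5 ± 1.1 against 2.24 ± 0.207), and Cdh5 was listed at 0 in all 6. Of 14 ependymal genes 3 were tested and all were higher in MIM-Astrocytes, led by Foxj1 (11.1 ± 1.29 against 0.294 ± 0.0313). Their part in the differences above was not tested. Meningeal fibroblast genes gave 3 higher and 3 lower of 6 tested, with sums of 29.4 to 31.5 and 27.2 to 28.5. Islr (17.1 ± 1.48 against 0.159 ± 0.0425) and Twist1 (0.212 ± 0.049 against 4.87 ± 0.534) were the extremes, while the collagen genes Col1a1 and Col1a2, which define fibroblasts, were at or below 0.151 in the mean of either culture.

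Imprinted genes, 20 tested, were higher for 5 and lower for 9. H19, a maternal long noncoding RNA, was at 0.0699, 0.212 and 0.27 FPKM against 12.3, 11.2 and 12.1 (difference -3.44, SE 0.08, adjusted p = 1.09e-06), while Ndn was at 11.1 ± 0.802 against 2.01 ± 0.177. Airn, a paternal antisense RNA, was at 0.727 ± 0.137 against 9.4 ± 0.529. Sex-linked genes also differed. Xist, the RNA that coats the inactive X, was at 31.5, 25.1 and 31.5 against 0.199, 0.0984 and 0.122 (difference 4.73, SE 0.10, adjusted p = 8.05e-07). The Y genes Uty (12.4 ± 1.25 against 3.68 ± 0.582), Kdm5d (10.6 ± 0.0774 against 4.59 ± 0.24), Ddx3y (14.4 ± 0.746 against 5.71 ± 0.182) and Eif2s3y (28 ± 0.161 against 12.1 ± 0.502) were present in both cultures and higher in MIM-Astrocytes. MIM-Astrocytes thus held both Xist and Y transcripts in every library, and Glioblastoma held Y transcripts with little Xist.

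The difference was not even over chromosomes. The median of protein-coding genes, -0.20 in all, was 0.48 on chromosome 4, 0.44 on 16 and 0.47 on 18, and between -0.50 and -0.02 on the other 17. On chromosome 4, 493 of 736 genes were higher in MIM-Astrocytes and 102 lower (67% and 13.9%), on 16 245 and 55 of 371, and on 18 214 and 56 of 331, beside 29.3% higher and 48.3% lower among all protein-coding genes. Bins of 20 Mb with at least 20 genes, added after these values were seen, had medians above 0 in 8 of 8 cases on chromosome 4 (0.39 to 0.75), 4 of 4 on 16 (0.25 to 0.49) and 5 of 5 on 18 (0.33 to 0.55). On X, 1 bin of 9, the first, stood at 0.52 with 30 of 47 genes higher, and it holds the histone demethylase Kdm6a (15.4 ± 0.131 against 8.21 ± 0.779). Set against NSC and Astrocytes, MIM-Astrocytes had medians from 0.03 to 0.13 and from 0.03 to 0.19 over all 20 chromosomes. Median-of-ratios scaling moved every chromosome by 0.19 to 0.21.

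Genes named above lie on these chromosomes on both sides of the comparison. Aqp4, Kcnn2 and Kif20a on 18, Olig1, Mcm4 and Itgb5 on 16 and Cdc20, Cdkn2c, Trp53inp1 and Slc2a1 on 4 were higher in MIM-Astrocytes. Within chromosome 4, Cdkn2a (chr4:89274471-89294653), Cdkn2b (chr4:89306289-89311032) and Mtap (chr4:89137122-89181081) were lower, in a bin with a median of 0.40 where 27 of 44 genes were higher. Hes1, Etv5 and Gap43 on 16 and Spry4, Egr1 and Fbn2 on 18 were likewise lower against the median of their chromosome. How far the chromosome medians enter each of these differences was not tested.

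**Figure D5:**
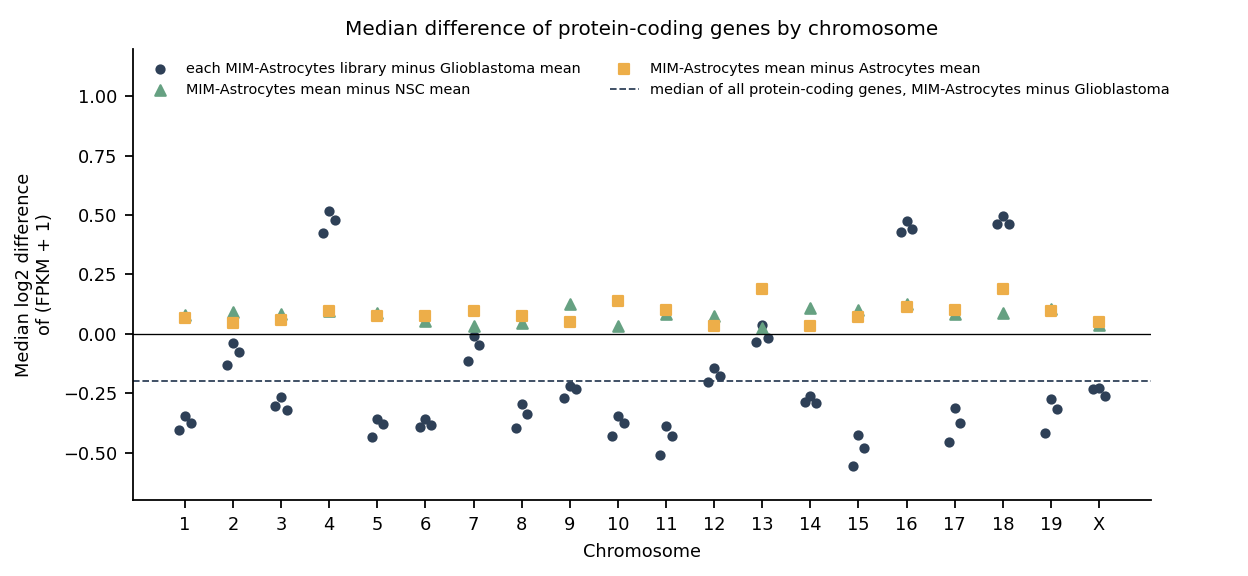
Median log2 difference of FPKM plus 1 of protein-coding genes on each chromosome. Dark circles are the 3 MIM-Astrocytes libraries against the Glioblastoma mean, triangles and squares the MIM-Astrocytes mean against the NSC and Astrocytes means, and the dashed line is the median of all protein-coding genes, -0.20. Chromosomes 4, 16 and 18, with group medians of 0.44 to 0.48, stand above all others in the comparison with Glioblastoma, while the triangles and squares of every chromosome lie between 0.03 and 0.19.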

How the data were processed

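The 3 MIM-Astrocytes and 3 Glioblastoma libraries were compared by RNA-seq FPKM values at the gene level. The authors deposited FPKM with interval bounds for each library, made with Cufflinks on GRCm38 per the submitters' processing notes; the aligner, annotation release and use of strand are not given in the sources used here. FPKM holds no read counts, so depth was read from the distance between each value and its deposited upper bound, and no count test was run. Lines of 1 identifier were added, and 20 genes whose estimate the file marks as failed were left out.

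Genes at 1 FPKM or more in at least 3 of the 6 libraries were tested with limma 3.58.1 (R 4.3.3) on log2(FPKM + 1), 1 mean per group, 4 residual degrees of freedom, moderated with a variance trend, two-sided, with Benjamini-Hochberg adjustment over all 15388 genes. Every adjusted p in the text is from this fit unless a scaling is named. Means, SDs and medians were computed in Python 3.11.15 with pandas 2.3.3. The fit was tested on simulated data. Library totals were compared by exact permutation. Side values of NSC and Astrocytes were not tested. Alternatives were other pseudocounts, filters, scalings, weights, all 12 libraries, the replicate number as a block and each library left out.

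The 45 gene lists and the members were chosen with earlier results of these data known. The text names the 12 genes with the largest difference each way (called, libraries not overlapping, at least 5 FPKM in the higher group, protein coding or named long noncoding RNA), up to 4 called members per list and direction with the smallest p, genes of a fixed set of astrocyte, glioma, cell cycle and one-carbon interest, and genes in runs near 0. Outside this rule, chosen after their values were seen, are Atf3, Atf4, Atoh1, Barhl1, Bbc3, C1qa, C1qb, C1qc, Cbs, Cdh5, Cdkn1a, Col1a1, Col1a2, Cth, Ctss, Ddit3, Egr1, Etv4, Etv5, Fabp7, Gadd45a, Glul, Hes5, Hk2, Ier3, Mcm5, Mcm6, Mcm7, Mt1, Mthfd2l, Phgdh, Phlda3, Psat1, Psph, Pycr1, Rpl3, Rplp0, Shmt1, Slc17a6, Slc25a32, Slc7a11, Spry4, Stmn2, Trem2, Uty and Vldlr. Of the listed symbols, 8 had no line and are not analysed here. Some results are not reported here.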

Additional observations from a re-analysis of the deposited data

How the results depend on the processing

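FPKM without counts limits what rescaling can settle, and genes below 1 FPKM are imprecise at this depth. The count of genes higher in MIM-Astrocytes was 2663 among genes with a mean of at least 5 FPKM and 6513 with no filter on level, where fewer and more genes were tested. At least 2-fold higher were 844 genes at a mean of 5 FPKM or more, and at least 2-fold lower 1381 when only protein-coding nuclear genes were kept and rescaled. Leaving out each library in turn gave 3968 to 4331 higher, 6485 to 6846 lower, 1437 to 1495 higher by at least 2-fold and 2177 to 2375 lower by at least 2-fold. In their deviations from the group mean, same-numbered libraries correlated at 0.11, 0.0874 and 0.0421, and those of different number at -0.145 to 0.0708. Each MIM-Astrocytes library did so best with its own number, but Glioblastoma 3 did so best with MIM-Astrocytes 2. Whether same-numbered libraries share a batch was not tested. With the replicate block 4073 genes were higher and 6692 lower. Under a common total, median-of-ratios scaling and quantile normalization in turn, Odc1 turned to 0.105, 0.0481 and 0.0187 and Slc7a11 to 0.0981, 0.0458 and 0.0239. The cause of these turns was not tested. Mdm2 was called without Glioblastoma replicate 3 (-0.20, adjusted p = 0.0327 by limma). Sesn2 was not called without Glioblastoma replicate 2 or 3 (0.20 each time, adjusted p = 0.0534 and 0.0501). Runs of adjacent genes near 0 numbered 9 at 0.1 FPKM and 20 at 0.3 FPKM. Medians of 43 of the 45 lists were followed under the alternatives. Of these, 12 changed sign under some alternative, among them G1 control and p53, one-carbon, imprinted, reactive astrocyte and DNA and histone methylation.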
